A study of Mus musculus with 2 samples.

Results

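The chemokine ligands Cxcl1, Cxcl2, Cxcl12, Cxcl14, Ccl2, Ccl7, Ccl8, Ccl11, Ccl24 and Cx3cl1 were followed across the cell types of the mouse heart. They are 10 of the 55357 genes in the count tables and were found there by their symbols. The list was chosen with earlier results of these data known. For each of them the level in each cell type, the share of cells in which its RNA was detected, and the difference between a sham-operated and a pressure-overloaded heart were measured.

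The data were 2 droplet single-cell RNA libraries of hearts of C57BL/6 mice. The TAC library came from male mice that were 8 weeks old when the aortic arch was narrowed by a ligature (transverse aortic constriction, TAC), a surgical model of pressure overload, and that were examined 6 weeks later. The Sham library came from mice that had the same operation without the constriction, and the study's design text calls these mice uninjured. The age and sex are stated for the TAC mice only. In both groups the cells of 3 to 5 hearts were pooled into 1 library, so there was no replicate in either group, no test between the groups was possible, and the difference between Sham and TAC cannot be told apart from a difference between 2 pools or 2 preparations.

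Chemokines are small secreted proteins that draw leukocytes along a gradient by acting on receptors in the leukocyte membrane. Cxcl1 and Cxcl2 attract neutrophils, Ccl2 and Ccl7 attract monocytes, Ccl8 belongs to the same family of monocyte chemoattractant proteins, and Ccl11 and Ccl24 attract eosinophils. Cxcl12 holds progenitors and lymphocytes in place and guides vessel growth, Cxcl14 is a constitutive tissue chemokine, and Cx3cl1 (fractalkine) is made as a membrane-bound protein.

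The Sham library held 28146691 unique molecular identifiers (UMIs, each standing for 1 captured RNA molecule) in 9935 barcodes and the TAC library 29108986 in 9932. After removal of called doublets, 9475 and 9452 cells were left. Of the compared cell types, the Sham and TAC libraries held 2509 and 2397 cardiomyocytes, 2290 and 2128 fibroblasts, 1904 and 2251 endothelial cells, 1412 and 1347 macrophages, 1056 and 1043 pericytes, and 85 and 110 lymphatic endothelial cells. Mitochondrial genes gave a median of 0.452% and 0.285% of the UMIs of a barcode. Of each 1000000 UMIs of cardiomyocytes, the RNA Malat1 gave 130991 in Sham and 162447 in TAC. The mRNAs of 89 ribosomal proteins together gave 1261 and 1326. How much of the cytoplasmic RNA of a cell was captured was not tested, and a cell without a UMI of a gene may still hold its RNA. The barcodes of 32 cells occurred in both libraries. A level is the UMIs of a gene per 1000000 UMIs of a cell type, with an exact Poisson 95% interval. All intervals and limits cover counting error only, and they are too narrow where a few cells carry many UMIs.

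Each chemokine had the same source, the cell type with its highest level, in both libraries. This held for 10 of 10 members, although for Ccl7 and Ccl11 in both libraries, and for Ccl2, Ccl8 and Cx3cl1 in Sham, the lead over the next type was within counting error. The share of all genes with the same highest type in both libraries was not measured. Fibroblasts were the source of Cxcl1, Cxcl14 and Ccl11, macrophages of Cxcl2, Ccl2, Ccl7, Ccl8 and Ccl24, and endothelial cells of Cxcl12 and Cx3cl1. For Cxcl2, Cxcl14 and Ccl24 the source was at least 5 times above the next type in both libraries. These are 3 of the 8 members with enough UMIs to be judged, and 9.99% of all genes met the same criterion. The interval of the lead reached below 5 for Cxcl2 in both libraries (from 2.65 in Sham and 1.47 in TAC) and for Cxcl14 in Sham (from 3.60). Ccl2 and Ccl7 were instead shared by macrophages and fibroblasts.

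**Figure D1:**
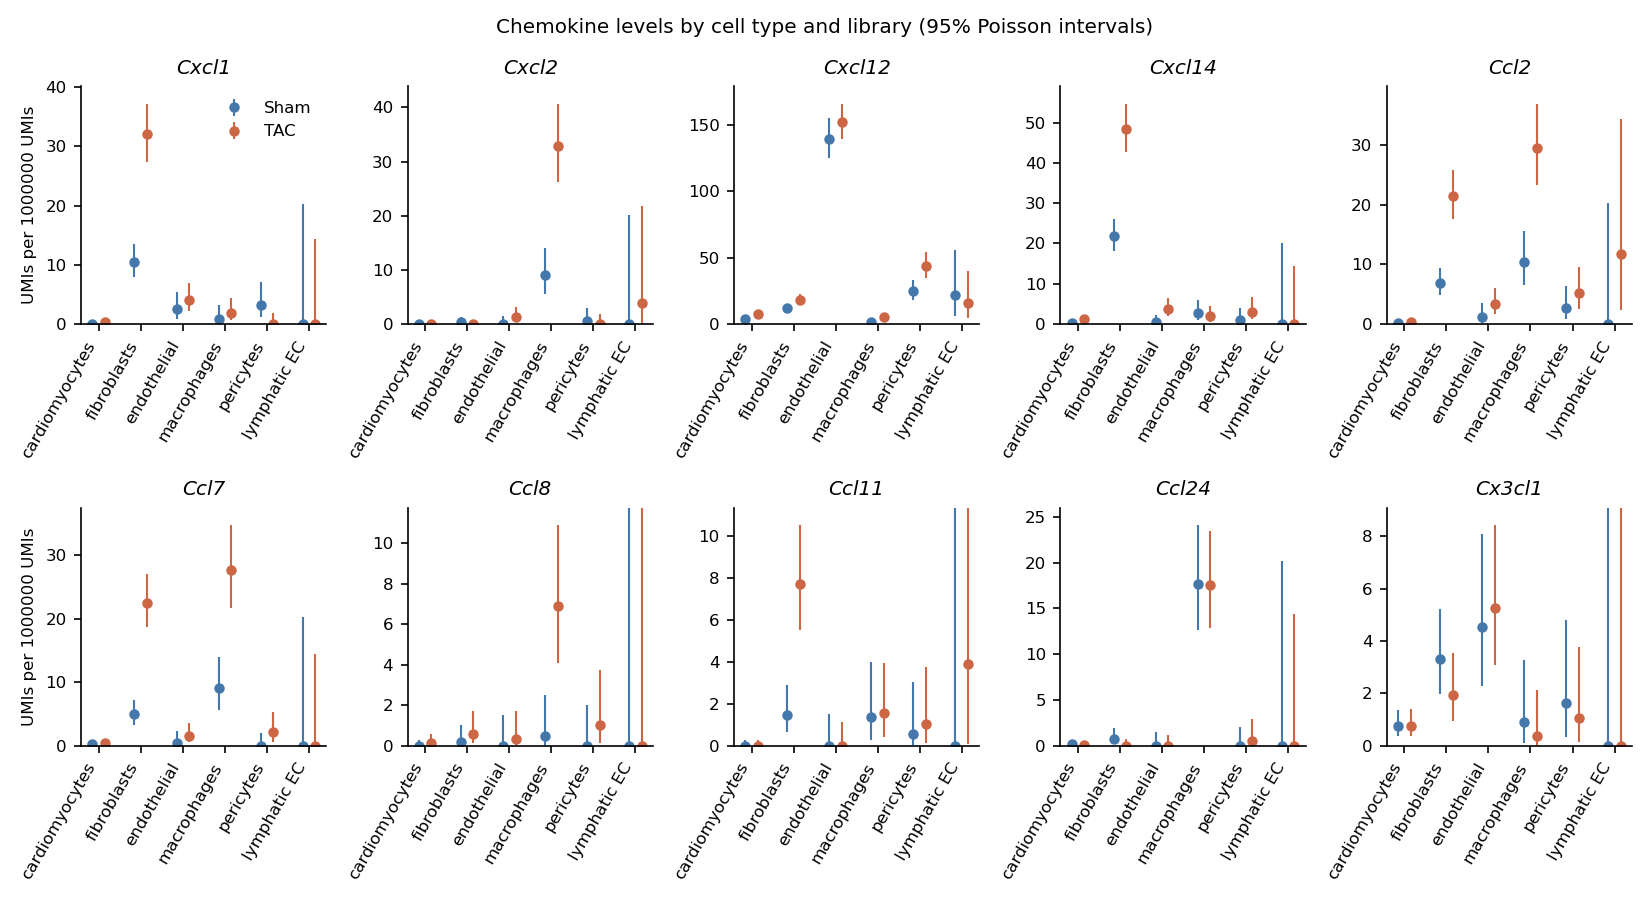
Level of each chemokine (vertical axis, UMIs per 1000000 UMIs of the cell type) in 6 cell types of the Sham (blue) and TAC (orange) library, with bars for the 95% Poisson interval. The upper ends of some intervals of the lymphatic endothelial cells (EC), which were few, lie outside the panels. Cxcl1 and Cxcl14 stand out in fibroblasts, Cxcl2 and Ccl24 in macrophages and Cxcl12 in endothelial cells, and Ccl2 and Ccl7 are high in both macrophages and fibroblasts.

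Most of these chemokines were higher in the TAC library. A ratio of TAC to Sham was given where a gene had at least 20 UMIs in a cell type of 1 library. In their source type, 6 of the 8 members so measured were at least 2-fold higher in TAC and 0 were at least 2-fold lower. In fibroblasts 5 of 6 members were at least 2-fold higher, where 5.69% of all genes measured were. In macrophages the count was 3 of 4, against 4.90% of all genes. Ccl11 reached 20 UMIs through TAC alone, with 8 UMIs in Sham and 40 in TAC fibroblasts, and is in both the 6 of 8 and the 5 of 6. The members were chosen with earlier results of these data known, so these counts only describe a chosen list. In endothelial cells, pericytes and cardiomyocytes the member measured was Cxcl12, which was below 2-fold in each, and the shares of all genes at least 2-fold higher were 5.81%, 4.10% and 7.06%.

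The members are short genes, of 1.61 to 12.8 kb. Among genes of up to 15 kb, 9.44% were at least 2-fold higher in TAC fibroblasts and 8.05% in TAC macrophages, against 3.54% and 3.44% of longer genes. The mRNAs of 89 ribosomal proteins were summed as a second reference, and their TAC to Sham ratio was 1.45 in fibroblasts, 1.28 in macrophages, 1.20 in pericytes, 1.05 in cardiomyocytes, 0.946 in endothelial cells and 1.76 in lymphatic endothelial cells. The median gene differed little, by 0.03 in fibroblasts and 0.01 in macrophages on the log2 scale. What part these shifts had in the ratios of the chemokines was not tested.

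**Figure D2:**
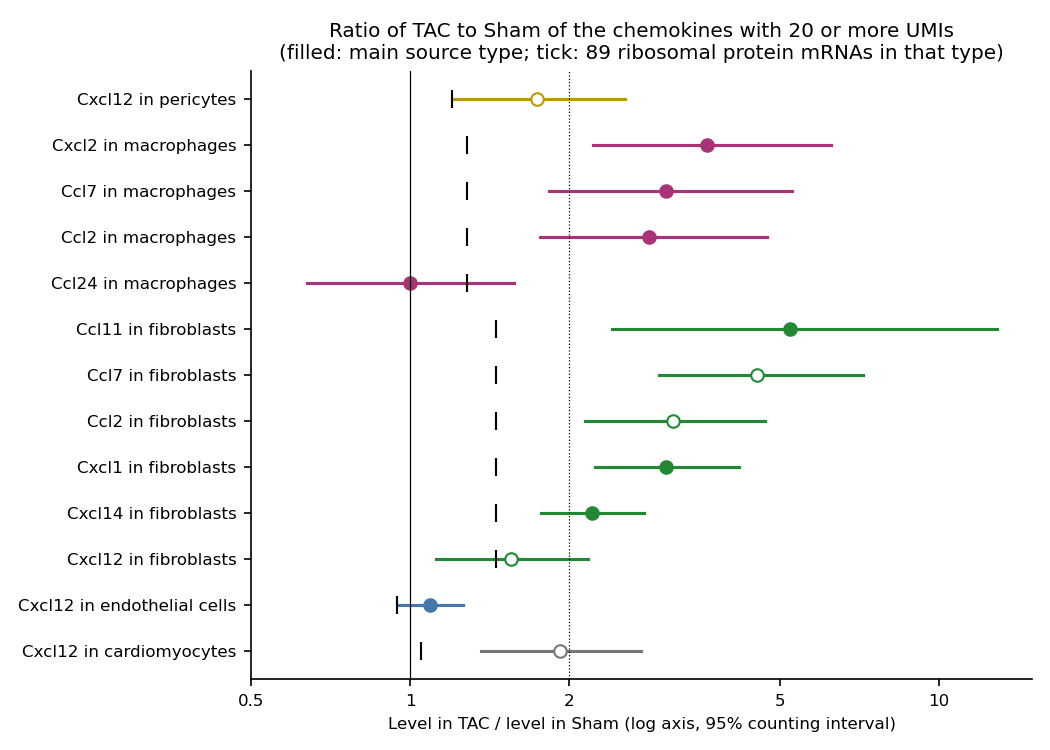
Ratio of the TAC to the Sham level (horizontal log axis) for each chemokine and cell type with at least 20 UMIs in 1 library, with bars for the 95% counting interval. Filled points mark the source type of the gene, colours the cell type, the solid line a ratio of 1, the dotted line 2-fold, and the ticks the ratio of the ribosomal protein mRNAs. The 8 ratios above 2-fold are those of Cxcl2, Ccl2 and Ccl7 in macrophages and Cxcl1, Cxcl14, Ccl2, Ccl7 and Ccl11 in fibroblasts, while Ccl24 in macrophages and Cxcl12 in endothelial cells lie close to 1.

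The neutrophil chemokines Cxcl1 and Cxcl2 were made by different cells although they are neighbours in the genome. Both lie on the plus strand of chromosome 5 of the mouse assembly GRCm38, Cxcl1 at chr5:90891241-90893115 and Cxcl2 at chr5:90903871-90905938, within 14.7 kb and with 0 protein-coding genes between them. Both also carry the same stretch, GGGAATTTCCC, shortly before the start site, 71 and 97 bases upstream of the RefSeq start. It holds the letters GGGANNTTC, the start of a common form of the site bound by NF-kappaB, on both strands in overlapping frames. Of 32851 RefSeq promoters of mouse (250 bases before to 50 after the start, GRCm38.p6), 1295 (3.94%) hold these letters on either strand. Among the members with a promoter in that table, Cxcl1, Cxcl2, Cxcl12, Cxcl14, Ccl8 and Cx3cl1, the letters were in 2 of 6. The 200 bases that end just before the first annotated base are shown for both genes, chr5:90891041-90891240 for Cxcl1 and chr5:90903671-90903870 for Cxcl2, both on the plus strand, because the shared stretch (in capitals) stands beside different source cells.
Cxcl1: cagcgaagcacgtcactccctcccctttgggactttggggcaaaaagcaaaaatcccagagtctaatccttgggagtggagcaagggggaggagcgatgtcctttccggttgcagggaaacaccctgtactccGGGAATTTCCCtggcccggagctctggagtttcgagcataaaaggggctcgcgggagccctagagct
Cxcl2: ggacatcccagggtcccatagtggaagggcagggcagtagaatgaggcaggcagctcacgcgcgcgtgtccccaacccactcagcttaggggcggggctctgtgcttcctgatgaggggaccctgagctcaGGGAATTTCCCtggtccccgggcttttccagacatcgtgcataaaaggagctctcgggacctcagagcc
A letter match is a description of the sequence and not a measured binding site. The letters TGANTCA (AP-1) are in 7.81% of all promoters and in 0 of 6 members, and GAAANNGAA (interferon-stimulated response element) in 8.56% of all promoters and in 1 of 6 members, Cxcl14.

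Cxcl1 stood at 10.5 (7.95 to 13.6) in Sham fibroblasts, with 57 UMIs in 44 cells, and at 32.0 (27.3 to 37.2) in TAC fibroblasts, with 166 UMIs in 89 cells. The ratio was 3.05 (2.24 to 4.19), and the intervals of the levels did not overlap. Fibroblasts held 80.3% of the Cxcl1 UMIs of the Sham library and 87.4% of those of the TAC library. Their level was 3.21 times (1.39 to 9.10) that of the next type, pericytes, in Sham and 7.95 times (4.52 to 15.2) that of endothelial cells in TAC. When fibroblasts of both libraries were clustered together without using any chemokine gene, Cxcl1 was higher in TAC in 5 of 5 clusters with at least 20 cells per library, with ratios from 2.91 to 3.92. In clusters at a finer setting (resolution 1) it was higher in 10 of 12.

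Cxcl2 was carried by few macrophages. In Sham 20 UMIs lay in 8 macrophages, and in TAC 86 UMIs lay in 28. The levels were 9.06 (5.53 to 14.0) and 32.9, with a ratio of 3.64 (2.22 to 6.25). A single cell held 10 of the 20 Sham UMIs, and another held 28 of the 86 TAC UMIs. Without the cell with the most UMIs in each library the levels were 4.53 and 22.3, and the ratio was 4.91. In TAC fibroblasts thinned to 1000 UMIs per cell, 0 of 2035 held a Cxcl2 UMI, which allows a share of up to 0.147%.

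The monocyte chemoattractant genes Ccl2, Ccl7 and Ccl8 lie together with Ccl11 within 81.2 kb of chromosome 11, with 1 other protein-coding gene, Ccl12, between them. All are on the plus strand, Ccl2 (also known as MCP-1) at chr11:82035571-82037453, Ccl7 at chr11:82045712-82047525, Ccl11 at chr11:82057823-82062955 and Ccl8 at chr11:82115185-82116799. Of these 4 genes, Ccl2, Ccl7 and Ccl8 had their highest level in macrophages and Ccl11 in fibroblasts.

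Ccl2, the main ligand of the monocyte receptor Ccr2, was at 10.4 (6.60 to 15.6) in Sham macrophages and 29.5 (23.3 to 36.9) in TAC macrophages. These levels came from 23 UMIs in 19 cells and 77 UMIs in 51 cells, with a ratio of 2.83 (1.76 to 4.73). Fibroblasts held more Ccl2 UMIs than macrophages did, 52.1% of the gene's UMIs in Sham and 50.9% in TAC, at a lower level per UMI of the type. Their level was 6.82 (4.80 to 9.40) in Sham and 21.4 (17.6 to 25.8) in TAC, a ratio of 3.14 (2.14 to 4.68). Macrophages exceeded fibroblasts 1.53 times (0.866 to 2.64) in Sham, an interval that includes 1, and 1.38 times (1.02 to 1.86) in TAC.

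The Ccl2 UMIs of fibroblasts were packed into few cells, 37 UMIs in 14 Sham cells and 111 UMIs in 30 TAC cells. Most of them lay in a small fibroblast state. At the finer of both clusterings (resolution 1), 1 cluster of 91 fibroblasts, 31 from Sham and 60 from TAC, held 20 of the 37 Sham UMIs and 67 of the 111 TAC UMIs of Ccl2. Its leading genes were Adam12, Prg4, Meox1, B4galt5 and Ccn2, and it met the criteria for activated fibroblasts by Postn, Meox1 and Ltbp2. Ccl2 was at 222 (136 to 343) in its Sham cells and 392 (304 to 497) in its TAC cells, a ratio of 1.76 (1.06 to 3.07), smaller than that over all fibroblasts. The other activated cluster, led by Postn, Cilp and Nox4 and with 330 and 111 cells, had 0 Ccl2 UMIs in Sham and 1 in TAC. The same 91 cells were rich in Cxcl1, at 133 (68.9 to 233) in Sham and 146 (94.6 to 216) in TAC, and in Ccl7, at 33.3 (6.88 to 97.5) and 140 (89.9 to 209), but not in Cxcl14, with 2 UMIs in each library. The 67 TAC UMIs of Ccl2 came from 12 cells.

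Ccl7, a second ligand of Ccr2, followed the same division. In macrophages its level was 9.06 (5.53 to 14.0) in Sham, from 20 UMIs in 12 cells, and 27.6 (21.6 to 34.7) in TAC, from 72 UMIs in 49 cells, a ratio of 3.04 (1.83 to 5.28). In fibroblasts it was 4.98 (3.28 to 7.24) and 22.5 (18.6 to 27.0), from 27 UMIs in 18 cells and 117 UMIs in 55 cells, a ratio of 4.53 (2.96 to 7.17). The macrophage to fibroblast ratio was 1.82 (0.968 to 3.37) in Sham and 1.22 (0.899 to 1.65) in TAC, so the order of these types was not resolved in either library. The 9 macrophage markers in Ccl2-positive fibroblasts rested on 2 and 3 UMIs, at 43.8 (5.30 to 158) in Sham and 38.7 (7.99 to 113) in TAC, against 46.6 and 49.1 in Ccl2-negative fibroblasts, which leaves a more than 2-fold difference possible. For Ccl7-positive fibroblasts the sums were 18.6 (0.471 to 104) and 57.8 (26.5 to 110), against 46.9 and 48.7 in Ccl7-negative ones. The part of macrophage RNA in the fibroblast values was not tested.

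Among macrophages at resolution 1, a pair of unnamed clusters held much of the Cxcl2, Ccl2 and Ccl7 UMIs of TAC. The larger held 77 Sham and 240 TAC cells and was led by Creb5, Bcl2, Myo1e, Dusp16 and Traf3. It contained 42 of the 86 TAC UMIs of Cxcl2, 41 of the 77 of Ccl2 and 35 of the 72 of Ccl7, and in Sham 3 of 20, 4 of 23 and 5 of 20. Within it, Cxcl2 went from 20.1 (4.15 to 58.9) in Sham to 84.3 (60.8 to 114) in TAC, with 3 and 42 UMIs in 1 and 15 cells. Ccl2 stood at 26.9 (7.32 to 68.8) and 82.3 (59.1 to 112), a ratio of 3.07 (1.11 to 11.8), and Ccl7 at 33.6 (10.9 to 78.3) and 70.3 (48.9 to 97.7), a ratio of 2.09 (0.817 to 6.84). The smaller, with 24 Sham and 26 TAC cells and led by Hmox1, Slc40a1 and Adam8, held 10 of the 20 Sham and 32 of the 86 TAC UMIs of Cxcl2, at 224 and 557, but in 1 and 3 cells. Ccl2 was at 67.1 and 69.6 in it and Ccl7 at 44.7 and 69.6, from 2 to 4 UMIs each.

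The macrophages of the libraries were spread differently over the clusters. At resolution 0.5 the resident cluster held 300 Sham and 562 TAC cells and an unnamed cluster led by Dmd, Ttn and Tnnt2 held 652 and 273. At resolution 1, 8 clusters had at least 20 cells per library and a UMI of Ccl2, and in 5 of them Ccl2 was higher in TAC, with the interval of the ratio above 1 in 2. For Ccl7 the counts were 5 of 8 and 0. In the coarser clustering (resolution 0.5), the cluster of MHC class II macrophages (H2-Aa, H2-Ab1, H2-Eb1 and Cd74) had Ccl2 at 7.97 in Sham and 41.5 in TAC, a ratio of 5.21 (2.0 to 17.2), and that of resident macrophages (Lyve1, Timd4, Folr2 and F13a1) at 14.1 and 18.4, a ratio of 1.30 (0.623 to 2.90). In the cluster named resident at resolution 1, with 55 and 355 cells, Ccl2 was instead at 39.6 in Sham from 5 UMIs and had 10 UMIs in TAC, a ratio of 0.277 (0.0861 to 1.03), and Ccl7 at 47.6 and 21.9 (0.461, 0.179 to 1.40).

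**Figure D3:**
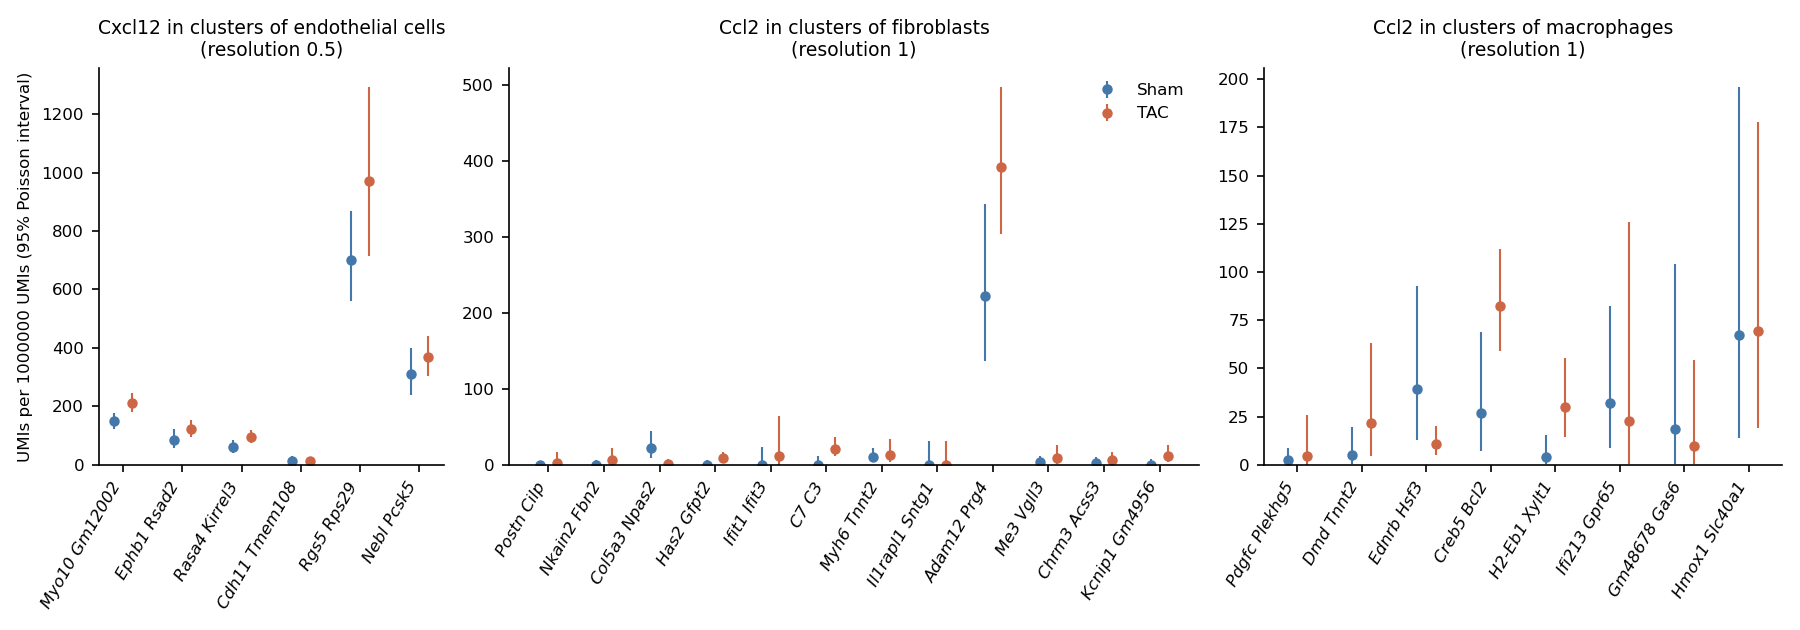
Levels (vertical axis, UMIs per 1000000 UMIs, with 95% Poisson intervals) of Cxcl12 in endothelial clusters and of Ccl2 in fibroblast and macrophage clusters with at least 20 cells in each library, in Sham (blue) and TAC (orange). Each cluster is named on the horizontal axis by the first of its leading genes. Ccl2 in fibroblasts reaches 222 and 392 in the cluster led by Adam12 and Prg4, far above every other fibroblast cluster, and Ccl2 in macrophages is highest in TAC in the cluster led by Creb5 and Bcl2.

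The whole of Ccl2 lies within the span of Gm17268, a gene on the opposite strand. Gm17268 had 28 UMIs in Sham and 219 in TAC fibroblasts, at levels of 5.16 and 42.2, a ratio of 8.18 (5.50 to 12.6). In macrophages it had 15 and 144 UMIs, at 6.79 and 55.1, a ratio of 8.12 (4.76 to 14.9). It was seen in 18 of the 30 Ccl2-positive TAC fibroblasts (95% interval 40.6% to 77.3%), against 1.97% of all TAC fibroblasts, and in 23 of the 51 Ccl2-positive TAC macrophages (45.1%, 31.1 to 59.7), against 5.20% of all. Whether the counting used the strand is not given in the sources used here, and without it reads of Ccl2 and Gm17268 cannot be told apart. Ccl2 was the only member that overlaps another annotated gene.

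Ccl8 was near the limit of detection in Sham, with 2 UMIs in the whole library, and had 26 in TAC. Macrophages held 1 and 18 of these UMIs, in 1 and 13 cells, at levels of 0.453 (0.0115 to 2.52) and 6.89 (4.09 to 10.9). This is below the 20 UMIs asked of a ratio. The macrophage level was 2.46 times (0.0313 to 193) that of fibroblasts in Sham, from 1 UMI in each, and 6.63 times (1.59 to 58.9) that of pericytes in TAC. Over all cells the ratio was 12.7 with an interval from 3.17 to 110. In the coarser clustering 18 of the 18 TAC macrophage UMIs lay in resident macrophages, and at resolution 1 the resident cluster held 17 of the 18.

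The eosinophil chemokines had different ratios of TAC to Sham. Ccl11 (eotaxin) was at 1.47 (0.636 to 2.90) in Sham fibroblasts, with 8 UMIs in 7 cells, and at 7.71 (5.51 to 10.5) in TAC fibroblasts, with 40 UMIs in 29 cells, a ratio of 5.23 (2.41 to 12.9). The fibroblast level was 1.09 times (0.260 to 6.35) that of macrophages in Sham and 1.97 times (0.334 to 79.7) that of lymphatic endothelial cells in TAC, so the source of Ccl11 was not resolved from the next type in either library. Ccl24, whose gene lies at chr5:135569937-135573049 on the minus strand, was at 17.7 (12.6 to 24.1) in Sham macrophages and 17.6 (12.9 to 23.5) in TAC macrophages, a ratio of 0.998 (0.637 to 1.57). Its 39 and 46 UMIs lay in 35 and 31 cells, and macrophages held 86.7% and 95.8% of all Ccl24 UMIs. In TAC 2 Ccl24 UMIs lay outside macrophages, and fibroblasts had 0, which allows a level of up to 0.578. At resolution 0.5, Ccl24 in resident macrophages was at 28.3 in Sham and 27.2 in TAC. In MHC class II macrophages it was at 12.8 in Sham, with 8 UMIs, and 1.38 in TAC, with 1 UMI, a ratio of 0.108 (0.00244 to 0.809). At resolution 1 the resident cluster held 1 Sham and 30 TAC UMIs, at 7.93 and 32.9, and an unnamed cluster led by Pdgfc and Plekhg5 held 25 and 8, at 29.6 and 37.4.

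Cxcl12 (SDF-1), which lies at chr6:117168535-117181367 on the plus strand, had its highest level in endothelial cells. It was at 139 (125 to 155) in Sham endothelial cells, with 338 UMIs in 218 cells, and at 152 (139 to 166) in TAC endothelial cells, with 491 UMIs in 339 cells. TAC stood at 1.09 times Sham (0.949 to 1.26), a range that spans 1. The next type was pericytes in both libraries, with 25.1 in Sham and 43.7 in TAC, a ratio of 1.74 (1.20 to 2.55). Cxcl12 was also higher in TAC fibroblasts, at 11.8 and 18.3 (1.55, 1.12 to 2.17), and in TAC cardiomyocytes, at 3.93 and 7.55 (1.92, 1.36 to 2.73). In macrophages 3 and 13 UMIs were found. The endothelial level exceeded that of pericytes 5.54 times (4.06 to 7.71) in Sham and 3.48 times (2.75 to 4.44) in TAC.

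Endothelial states differed in Cxcl12 far more than the libraries did. Arterial endothelial cells (Gja5, Sema3g, Stmn2) were at 312 in Sham and 368 in TAC, and endocardial endothelial cells (Npr3, Smoc1, Tmem108), which line the chambers, at 11.8 and 13.6 from 4 and 9 UMIs. At resolution 1 a smaller arterial cluster of 43 and 82 cells was at 126 and 137, and an unnamed cluster led by Btnl9 and Lrrc3b at 288 and 424, while the endocardial values were the same. The highest levels, 702 and 972, came from 84 cells led by Rgs5 and ribosomal protein genes. Cxcl12 was higher in TAC in 6 of 6 clusters with at least 20 cells per library, and in 2 of them the interval of the ratio lay above 1. These were the cluster led by Myo10, at 149 and 211 (1.42, 1.12 to 1.80), and the one led by Rasa4 and Kirrel3, which carried the venous marker Nr2f2, at 59.5 and 95.6 (1.61, 1.05 to 2.52). At resolution 1 the level was higher in TAC in 9 of 11 clusters.

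Cxcl14, at chr13:56288643-56296551 on the minus strand, was a fibroblast chemokine in both libraries. Its level was 21.9 (18.2 to 26.2) in Sham fibroblasts, with 119 UMIs in 86 cells, and 48.4 (42.6 to 54.7) in TAC fibroblasts, with 251 UMIs in 158 cells, a ratio of 2.21 (1.77 to 2.77). At resolution 0.5 Cxcl14 was lowest in activated fibroblasts, at 7.29 in Sham and 17.1 in TAC, and stood at 34.8 and 63.3 in the fibroblasts marked by Nkain2, Fbn2 and Vit. Ccl2 had the opposite order at that resolution, with 32.8 and 139 in activated fibroblasts and 0.892 and 2.84 in those marked by Vit. At resolution 1 the order of Cxcl14 did not hold throughout, since in TAC the cluster led by Nkain2 and Fbn2 was at 12.3 from 4 UMIs and the activated cluster led by Postn and Cilp at 21.1 from 7. Cxcl14 was higher in TAC in 5 of 5 clusters at resolution 0.5 and in 8 of 12 at resolution 1.

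Cx3cl1, at chr8:94772009-94782427 on the plus strand, was sparse in all types. Endothelial cells had 4.53 (2.26 to 8.11) in Sham and 5.26 (3.07 to 8.43) in TAC, from 11 and 17 UMIs, which is below the 20 UMIs asked of a ratio. Fibroblasts had 3.32 (1.97 to 5.24) and 1.93 (0.924 to 3.54), from 18 and 10 UMIs, and cardiomyocytes 0.742 and 0.762. The endothelial level was 1.37 times (0.583 to 3.05) that of fibroblasts in Sham, so that these neighbours in the order did not differ beyond counting error there. No change in Cx3cl1 was detectable at this depth.

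The share of cells with a chemokine UMI was compared after each cell had been thinned to 1000 UMIs, since deeper cells show more genes. Before thinning, fibroblasts had medians of 2277 and 2306 UMIs among the cells used, macrophages 1591 and 1864, endothelial cells 1466 and 1547, and cardiomyocytes 4547.5 and 4923. Cells below 1000 UMIs were left out, which removed 211 and 93 fibroblasts, 401 and 222 macrophages, and 814 and 726 endothelial cells of Sham and TAC. As a background, the share was taken in a type held to lack the gene.

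Cxcl12 was seen in 9.72% (8.03 to 11.6) of Sham and 11.3% (9.80 to 13) of TAC endothelial cells, against 0.198% and 0.356% of macrophages. Unthinned, the endothelial shares were 11.4% and 15.1%. All other members were seen in under 4% of their source cells. Cxcl14 was seen in 1.97% (1.42 to 2.67) of Sham and 3.39% (2.65 to 4.27) of TAC fibroblasts, with 0.0917% and 0.328% of endothelial cells as background. Cxcl1 was seen in 1.06% (0.664 to 1.60) and 2.41% (1.79 to 3.17) of fibroblasts, and in 0 of 2476 Sham cardiomyocytes, which allows up to 0.121%, and 0.0839% of TAC cardiomyocytes. The Cxcl1 intervals of Sham and TAC did not overlap, whereas those of Cxcl12 and, narrowly, of Cxcl14 did.

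In macrophages, Cxcl2 went from 0.297% of cells in Sham to 1.69% in TAC, Ccl2 from 0.989% to 2.31%, and Ccl7 from 0.692% to 2.49%. The background in cardiomyocytes was 0.0404% or less in Sham and 0.0419% or less in TAC for these genes. Ccl8 was seen in 0 of 1011 Sham macrophages, which allows up to 0.297%, and in 0.711% of TAC macrophages. Ccl11 was seen in 0.0962% and 0.835% of fibroblasts, Ccl24 in 0.989% and 1.16% of macrophages, and Cx3cl1 in 0.367% and 0.262% of endothelial cells. At 2000 UMIs per cell, which left 212 Sham and 406 TAC endothelial cells and 308 and 498 macrophages, Cxcl12 was seen in 17.5% (12.6 to 23.2) and 12.6% (9.50 to 16.2), and Ccl24 in 5.19% and 2.61%. At 500 UMIs Cxcl12 was seen in 5.93% and 6.66% and Ccl24 in 0.708% and 0.594%, so neither had a stable direction. Without thinning, the fibroblast shares were 1.92% and 4.18% for Cxcl1, 3.76% and 7.42% for Cxcl14 and 0.306% and 1.36% for Ccl11. The macrophage shares were 0.567% and 2.08% for Cxcl2, 1.35% and 3.79% for Ccl2, 0.850% and 3.64% for Ccl7 and 2.48% and 2.30% for Ccl24.

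**Figure D4:**
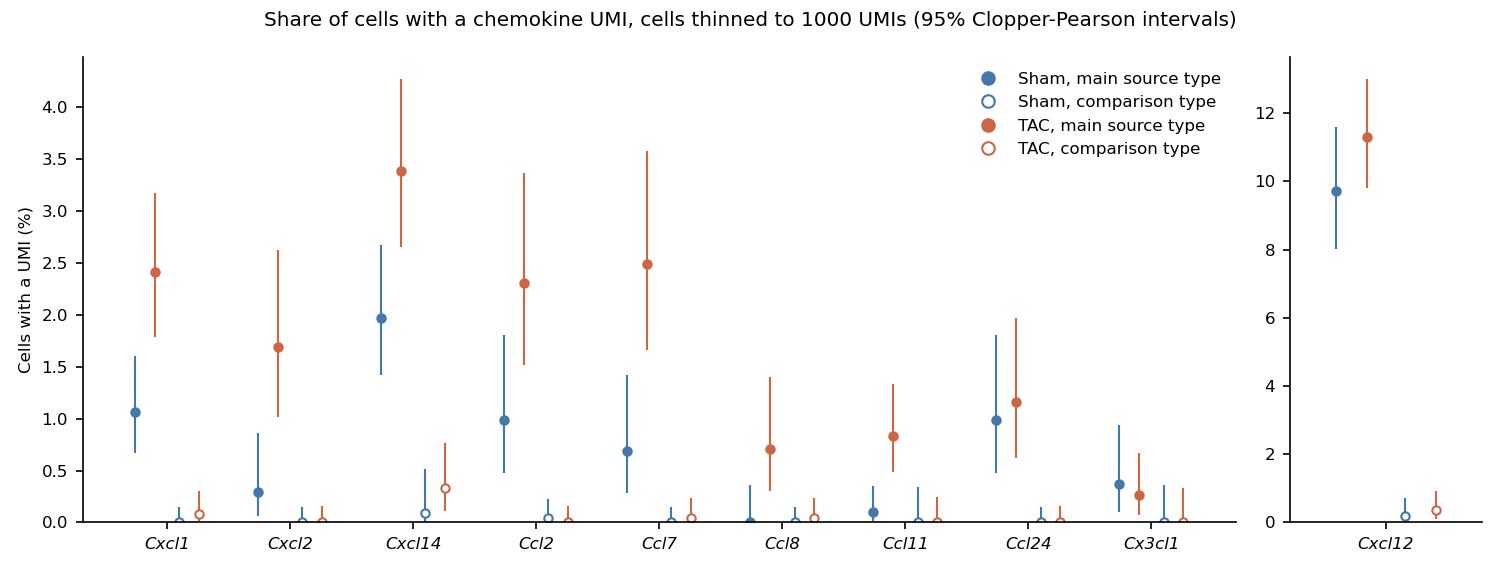
Share of cells with at least 1 UMI of each chemokine (vertical axis, %) after thinning to 1000 UMIs per cell, with 95% Clopper-Pearson intervals, for Sham (blue) and TAC (orange). Filled points are the source type and open points the type used as background, and Cxcl12 has an axis of its own. The share in TAC is above that in Sham for 9 of 10 members, with intervals apart for Cxcl1, Cxcl2, Ccl7 and Ccl11 and by little for Cxcl12 and Ccl24, and the open points stay below 0.5%. At other depths the direction turned for Cxcl12, Ccl24 and Cx3cl1.

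Some pairs of chemokines were found in the same cells more often than in all cells of the type. Among them were the pairs of Ccl2, Ccl7 and Cxcl1 in TAC fibroblasts and of Ccl2 with Ccl7 or Cxcl2 in TAC macrophages. The pair of Ccl2 with Ccl7 was also among them in Sham, in fibroblasts and in macrophages. Of the 30 Ccl2-positive TAC fibroblasts, 11 (36.7%, 19.9 to 56.1) also held Ccl7, against 2.58% of all TAC fibroblasts, and 26.7% held Cxcl1, against 4.18%. In Sham 3 of 14 Ccl2-positive fibroblasts (21.4%) held Ccl7, against 0.786%. After thinning the TAC share was 31.2% (5 of 16) against 1.62%. In Sham fibroblasts the pairs of Cxcl1 with Ccl2 and with Ccl7 rested on 2 cells each, and after thinning on 0. Of the 29 Ccl11-positive TAC fibroblasts, 5 (17.2%, 5.85 to 35.8) held Cxcl1, against 4.18% of all. After thinning 1 of 17 did (5.88%, 0.149 to 28.7), an interval that includes the 2.41% of all. Cxcl14-positive TAC fibroblasts held Cxcl1 in 5.06%, close to the 4.18% of all fibroblasts. In TAC macrophages 11 of 51 Ccl2-positive cells (21.6%) held Ccl7, against 3.64% of all, and 6 of 28 Cxcl2-positive cells (21.4%) held Ccl2, against 3.79%. In Sham 0 of 8 Cxcl2-positive macrophages held Ccl2, and 2 of 31 Ccl24-positive TAC macrophages did (6.45%). Positive cells were deeper, with a median of 2247 UMIs for Ccl2-positive TAC macrophages and 1661 for all. After thinning, 11.5% of Ccl2-positive TAC macrophages (3 of 26, 2.45 to 30.2) held Ccl7, an interval that includes the 2.49% of all. Of the thinned Cxcl2-positive TAC macrophages 21.1% (4 of 19) held Ccl2, against 2.31% of all.

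The expression of 2 gene lists was then compared between cells with and without a chemokine. The first held 16 immediate-early genes such as Fos, Jun and Egr1, which many stimuli induce within minutes, tissue dissociation among them. The second held 10 NF-kappaB inhibitors and early targets such as Nfkbia, Tnfaip3 and Icam1. Over all fibroblasts the summed immediate-early level went from 337 in Sham to 529 in TAC (1.57). Of the 14 measured members 14 were higher and 5 at least 2-fold higher, where 5.69% of all genes measured were at least 2-fold higher. The share of all genes that were higher by any amount was not computed. The median log2 ratio was 0.76, beside 0.03 for all genes. In macrophages the ratio of the summed level was 1.09. The NF-kappaB list gave 1.11 in fibroblasts and 0.844 in macrophages.

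In Cxcl1-positive fibroblasts the immediate-early list was 1.83 times (1.42 to 2.32) the level of Cxcl1-negative ones in Sham and 2.27 times (1.99 to 2.58) in TAC. The NF-kappaB list was at 2.24 and 2.68 times. Ccl2-positive fibroblasts had the NF-kappaB list at 4.11 times (3.05 to 5.44) in Sham and 5.16 times (4.23 to 6.23) in TAC. In Cxcl14-positive fibroblasts the same ratios were 0.918 and 1.20. Cxcl2-positive macrophages had 5.05 times (3.74 to 6.68) the NF-kappaB list of the others in Sham and 3.84 times (3.19 to 4.58) in TAC, and 3.58 and 2.39 times the immediate-early list. In macrophages, Ccl2-positive cells had the NF-kappaB list at only 1.18 times (0.822 to 1.66) in Sham and 1.57 times (1.29 to 1.88) in TAC. Ccl7-positive macrophages had it at 0.569 times (0.272 to 1.05) and 1.60 times (1.33 to 1.90). Their immediate-early ratios were 0.855 and 1.05 for Ccl2 and 1.46 and 0.877 for Ccl7, with intervals that included 1. For Ccl24 in macrophages the NF-kappaB ratios were 1.04 and 0.850, and for Cxcl12 in endothelial cells 1.02 and 1.10. What part the immediate-early difference between the libraries had in the fibroblast chemokine ratios was not tested.

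**Figure D5:**
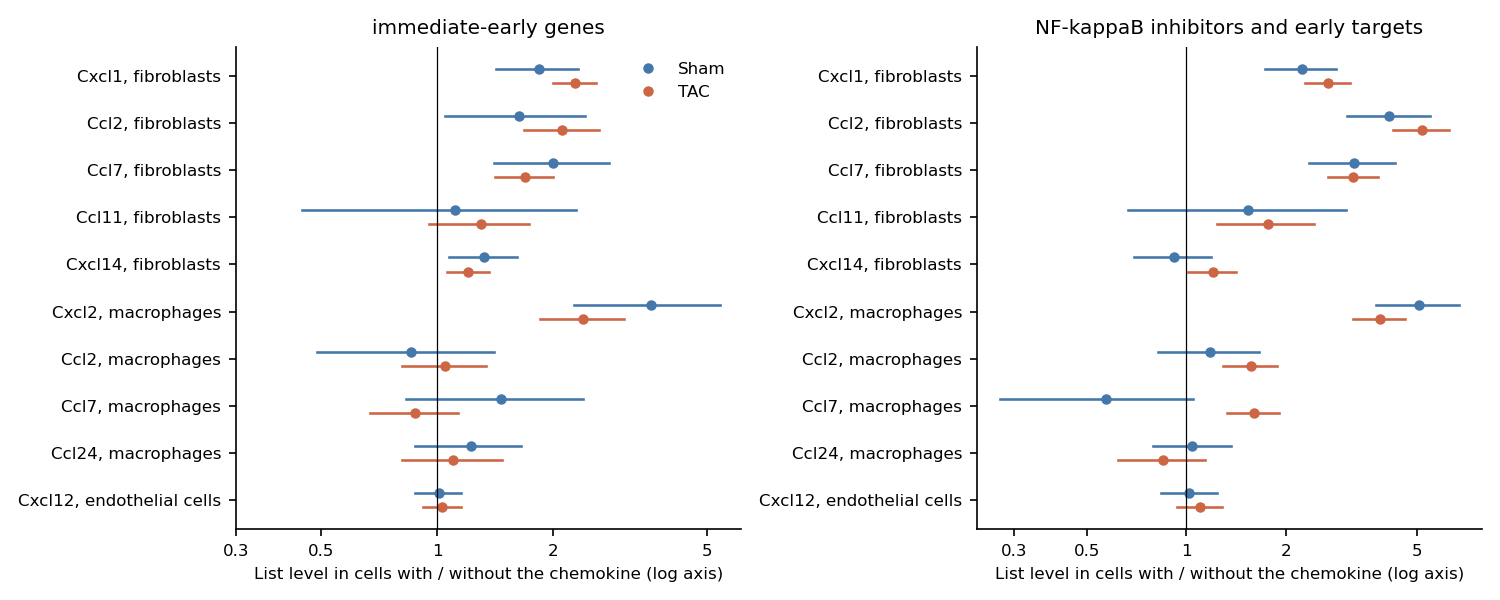
Ratio of the summed level of a gene list in cells with a chemokine UMI to that in cells of the same type without one (horizontal log axis), with 95% counting intervals, in Sham (blue) and TAC (orange), for immediate-early genes on the left and NF-kappaB inhibitors and early targets on the right. Cxcl1, Ccl2 and Ccl7 in fibroblasts and Cxcl2 in macrophages lie to the right of 1 in both panels, while Ccl24 and Cxcl12 lie close to 1. For Ccl2 and Ccl7 in macrophages the interval lies above 1 only for the NF-kappaB list in TAC.

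Among chemokine receptors, 22 of the 23 listed had a UMI and 13 had at least 20 over both libraries. The receptors for Ccl2 and Ccl7 had their highest level in macrophages. Ccr2, the receptor of Ccl2 and Ccl7, was at 64.7 in Sham and 84.2 in TAC macrophages (1.30, 1.05 to 1.62), and Ccr1 at 43.9 and 72.8 (1.66). Cx3cr1, the receptor of Cx3cl1, was at 71.1 and 92.3 (1.30). Cxcr4, the signalling receptor of Cxcl12, was at 22.6 and 14.6 (0.643, 0.410 to 1.0). Of the 8 receptors measured in macrophages, 0 were at least 2-fold higher and 1, Ackr3, at least 2-fold lower, with 21 and 12 UMIs. Of all genes measured in macrophages 4.90% were at least 2-fold higher, and the share at least 2-fold lower was not computed. Ackr3, a scavenger of Cxcl12, was at 68.0 and 117 in fibroblasts (1.72). Cxcr2, the receptor of Cxcl1 and Cxcl2, had 16 UMIs in all cells of both libraries. No cluster met the criteria for neutrophils or monocytes. The 6 neutrophil markers in macrophages, all of them detected, summed to 131 in Sham and 112 in TAC, and the 6 monocyte markers, all detected, to 28.1 and 19.1. Neither sum was higher in TAC. Of the 3 neutrophil markers with enough UMIs for a ratio, 1 was at least 2-fold higher in TAC, and the median log2 ratio was -0.24. The 1 such monocyte marker had a log2 ratio of -1.03. In fibroblasts the sums were 3.32 and 6.74 for neutrophil markers, with Retnlg at 0, and 2.58 and 9.25 for monocyte markers, with Chil3, Ms4a4c and Gm9733 at 0. Only 1 marker of each list had enough UMIs there for a ratio, at 0.69 and 3.11 on the log2 scale. The part of these markers' cells in the fibroblast ratios was not tested. Ackr4, Cxcr6, Ccr9 and Cx3cr1 overlap other genes on the opposite strand, and Ccr9 and Cx3cr1 also on the same strand. Their values are uncertain for that reason. Ackr4 was at 26.5 and 51.3 and Cxcr6 at 10.2 and 34.3 in cardiomyocytes.

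Of the 28 other chemokine ligands listed, 27 had a UMI and 16 had at least 20 over both libraries. In macrophages 2 of the 8 measured were at least 2-fold higher in TAC and 0 at least 2-fold lower, with a median log2 ratio of 0.79, where 4.90% of all genes were at least 2-fold higher and the median was 0.01. Pf4 went from 36.2 to 93.4 (2.58), Ccl12, another Ccr2 ligand, from 44.8 to 85.0 (1.90), Ccl6 from 206 to 366 (1.77) and Ccl9 from 105 to 177 (1.69). Cxcl17, the other ligand at least 2-fold higher, had 8 and 31 UMIs and so reached 20 in TAC only. Cxcl16 went the other way, from 152 to 118 (0.775, 0.662 to 0.908). Ccl6, Cxcl16, Cxcl17, Ccl19 and Ccl21a overlap genes on the opposite strand, which limits their values in the same way. In lymphatic endothelial cells Ccl21a, which guides dendritic cells into lymph vessels, was at 531 and 994 (1.87), beside a ribosomal protein mRNA ratio of 1.76 in these cells. In fibroblasts 3 of the 6 measured were at least 2-fold higher, with a median log2 ratio of 0.82, beside 5.69% and 0.03 for all genes. They were Ccl6 (10 and 24 UMIs), Ccl19 (18 and 38) and Ccl21a (7 and 22), each with at least 20 UMIs in TAC only. In TAC, Ccl6 was at 4.62 in fibroblasts and 366 in macrophages, and Ccl21a at 4.24 in fibroblasts and 994 in lymphatic endothelial cells. The part of RNA from those cells in the fibroblast values was not tested.

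The genes whose level over 26 clusters was most like that of a member were found for members with at least 100 UMIs. They were Ssc5d and Srpx for Cxcl1 (Pearson r of 0.94 and 0.93), Srpx and Dok6 for Cxcl14 (0.96 and 0.95), Gm30489 and Lrrc25 for Cxcl2 (0.88 and 0.85), Rflnb and Sox13 for Cxcl12 (0.86 and 0.84), Gm8369 and Ubap2l for Ccl7 (0.89 and 0.82), and Acbd3 and Uba6 for Ccl2 (0.77 and 0.76). The clusters share libraries and depth, so these values describe likeness only.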

How the data were processed

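The deposited matrices hold UMI counts, whole numbers per gene and barcode, which the authors made with Cell Ranger 7.1.0 per the file headers. The kit is given as V3 in the labels, which differ from the paper in kit and Cell Ranger version. The genome build, the strand setting and the use of intronic reads are not given in the sources used here. Positions are from GENCODE M21 on GRCm38, which holds 52081 of the 55357 gene IDs (94.1%), and promoters from RefSeq on GRCm38.p6. The members and gene lists were chosen with earlier results of these data known.

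With scanpy 1.11.5 and Python 3.11.15, barcodes with at least 200 detected genes were kept (1 removed per library). Scrublet called 459 doublets (4.62%) in Sham and 479 (4.82%) in TAC, which were removed. Each library was normalised to 10000 UMIs per cell and clustered by itself (2000 variable genes, 30 principal components, 15 neighbours, Leiden resolution 1, seed 1) without chemokine ligands, chemokine receptors and mitochondrial genes. A cluster took a name from 3 or more markers that 10% or more of its cells held and that stood 2-fold or more above the rest. A tie rule and a rule that leaves clusters led by cell-cycle genes unnamed were added after seeing the data. Fibroblasts, endothelial cells and macrophages of both libraries were clustered again together at resolutions 0.5 and 1, with 20 principal components.

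Types with at least 50 cells in each library were compared. Levels are summed UMIs per 1000000 with exact Poisson intervals, ratios have exact conditional binomial intervals and shares Clopper-Pearson intervals, all at 95%. A count of 0 allows up to 3 counts. With 1 library per group no p-value was computed. All members were described, with the receptors, other ligands and like genes of highest UMIs or correlation. Some receptor results are not reported here. The correlation was taken on log2 of the level plus 1, over clusters of at least 50 cells and genes with at least 200 UMIs. Ratios were tried on simulated Poisson counts of macrophages, in which the changed genes had more UMIs than the members had there. That setting covers neither the low counts of the members nor UMIs packed into few cells. The filters, clustering, naming, scaling and thinning were varied one at a time.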

Additional observations from a re-analysis of the deposited data

How the results depend on the processing

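The number of chemokines at least 2-fold higher in TAC in their source type was 6 under each of the 13 alternatives. The number with the same source in both libraries was 10, apart from 9 when levels were means over cells and 9 without the cell with the most UMIs, and Ccl8, with few Sham UMIs, was the member that changed in both. Under the mean over cells of UMIs per 10000, the Cxcl12 ratio in endothelial cells was 1.28. The ratio in the source type ranged over the alternatives from 2.55 to 3.19 for Cxcl1, 2.80 to 4.91 for Cxcl2, 1.05 to 1.28 for Cxcl12, 2.03 to 2.42 for Cxcl14, 2.74 to 3.23 for Ccl2, 2.35 to 3.33 for Ccl7, 4.67 to 6.27 for Ccl11, 0.868 to 1.34 for Ccl24, 5.45 to 36.6 for Ccl8 (with no value without its top cell, which left 0 Sham UMIs) and 0.936 to 1.24 for Cx3cl1. An alternative, names without the rules added after seeing the data, was chosen afterwards. The fibroblast cluster led by Adam12 and Prg4 and the macrophage cluster led by Creb5 and Bcl2 were separate at resolution 1 and not at resolution 0.5. Shares of positive cells depended on the thinning depth, and the direction turned for Cxcl12 at 2000 UMIs, for Ccl24 at 500 and 2000 and for Cx3cl1 at 2000. The levels of named states also changed with the resolution, for Ccl2 and Ccl24 in resident macrophages, Cxcl12 in arterial endothelial cells and Cxcl14 in fibroblasts. Depth limits Ccl8, Ccl11, Cxcl2, Cx3cl1 and Ccl24 most, with 2, 12, 23, 44 and 45 UMIs in all Sham cells. No paired analysis was possible because each group had 1 library, so leaving out a replicate was not possible either.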
